A study of Homo sapiens with 17 samples.

Results

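The genes described are 10 adhesion molecules of the immunoglobulin superfamily, ICAM1 to ICAM5, VCAM1, NCAM1, NCAM2, L1CAM and ALCAM, out of 26457 genes listed for mRNA-seq of SW480 cells. Members were taken by gene symbol, and the genes were chosen by their measured levels in these same libraries, with the TNF-α-inducible ICAM genes to be set against NCAM1. SW480 cells are an established line from a human colon cancer and express the p53 mutant R273H (mutp53). The study compared SW480 cells carrying a doxycycline-inducible short hairpin RNA against LacZ (control) with SW480 cells carrying one that targets p53 (mutp53-depleted). Cells were taken untreated (0 h) or after TNF-α, a cytokine of inflammation, had been present for 16 h at 12.5 ng/ml. All 4 groups received puromycin and doxycycline, so the controls also expressed a hairpin, and each group had 2 biological replicates, A and B. The hairpin lines came from another laboratory, and whether they are clones or pools is not given in the sources used here, so depletion and any other difference between the lines cannot be told apart.

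Adhesion molecules of this superfamily stand on the cell surface with immunoglobulin-like domains outside the cell, through which they bind integrins or one another. The ICAM proteins and VCAM1 are best known as ligands that leukocytes grip with their integrins when they cross blood vessel walls and enter inflamed tissue, and ICAM1 and VCAM1 are classical targets of the transcription factor NFκB, which TNF-α activates. NCAM1, NCAM2 and L1CAM are known from neurons, where they hold cells together and guide axons, NCAM1 is also a marker of natural killer and neuroendocrine cells, and L1CAM and ALCAM (CD166) are found on colon cancer cells.

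The promoter sequences of 4 members are shown first: those of ICAM1 and VCAM1, which carry an NFκB motif, and those of ICAM4 and ICAM5, the neighbours of ICAM1 that differ in their TNF-α response. RefSeq starts on GRCh38.p14 were available for 8 of the 10 members, and the 250 bases before the start were searched on both strands for the NFκB consensus of 10 letters, for the palindromic form GGAANTTCC and for the TATA box letters TATAAA. Either NFκB motif was present in 5.80% of the 35116 RefSeq promoter windows of this length, GGAANTTCC in 0.826% and TATAAA in 10.7%. Capitals mark an NFκB motif, and all sequences run 5′ to 3′ on the gene's own strand, which is the plus strand for all 4. The windows are chr19:10270870-10271119 for ICAM1, chr1:100719492-100719741 for VCAM1, chr19:10286705-10286954 for ICAM4 and chr19:10289702-10289951 for ICAM5.
ICAM1: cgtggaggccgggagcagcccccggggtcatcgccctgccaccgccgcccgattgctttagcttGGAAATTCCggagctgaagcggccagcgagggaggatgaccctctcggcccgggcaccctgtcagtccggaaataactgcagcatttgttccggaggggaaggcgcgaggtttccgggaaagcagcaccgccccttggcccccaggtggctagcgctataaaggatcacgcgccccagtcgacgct
VCAM1: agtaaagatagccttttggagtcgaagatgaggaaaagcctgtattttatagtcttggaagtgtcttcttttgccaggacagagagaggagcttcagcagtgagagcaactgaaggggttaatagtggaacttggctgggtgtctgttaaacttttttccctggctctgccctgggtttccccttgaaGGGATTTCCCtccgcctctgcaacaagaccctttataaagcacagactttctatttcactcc
ICAM4: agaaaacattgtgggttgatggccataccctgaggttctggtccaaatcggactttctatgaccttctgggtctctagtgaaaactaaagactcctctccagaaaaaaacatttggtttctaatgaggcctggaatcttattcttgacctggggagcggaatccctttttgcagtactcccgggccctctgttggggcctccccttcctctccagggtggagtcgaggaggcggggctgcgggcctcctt
ICAM5: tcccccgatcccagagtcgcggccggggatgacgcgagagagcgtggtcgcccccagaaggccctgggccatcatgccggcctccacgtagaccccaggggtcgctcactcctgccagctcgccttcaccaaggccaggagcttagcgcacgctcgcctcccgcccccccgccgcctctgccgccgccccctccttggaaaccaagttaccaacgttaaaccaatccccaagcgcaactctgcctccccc
The ICAM1 window held GGAAATTCC at positions -186 to -178 from the start and TATAAA at -30 to -25. The VCAM1 window held the 10-letter consensus as GGGATTTCCC at -62 to -53 and TATAAA at -29 to -24. No NFκB motif was found in the ICAM4 and ICAM5 windows, nor in those of ICAM3, NCAM2, L1CAM and ALCAM, which says only that these letters are not in these 250 bases.

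The authors deposited for each gene the reads on its exons multiplied by 1 factor per library, called normalized reads here, and gene coordinates are those of hg19 in their table. Each library had 6108488 to 13809578 reads on genes, and 1 read was worth 0.67 to 1.51 normalized reads. Changes were estimated with limma on log2(normalized reads + 1) for 14800 genes whose mean was 2.5 or more, and calls were made at a fold change of 2 or more with an adjusted p (Benjamini-Hochberg) under 0.05. The p-values rest on a single estimate of the spread per gene between biological replicates. It was shared by all 4 groups of 2 libraries and moderated by a trend over all genes tested. In bulk RNA, fewer cells of a type and less RNA per cell cannot be told apart. The colon epithelial keratin KRT8 was between 15437 and 27733 normalized reads in every library, the differentiation markers CDX1 and KRT20 were at 0 and at 8.64 or less, and the leukocyte marker PTPRC and the endothelial markers KDR and TEK were at 0 in all 8 libraries. Other listed markers were not at 0, with CD14 at up to 34.8, LYZ 15.4, ITGB2 8.70 and VWF 28.8. The epithelial EPCAM and VIL1 were lower with depletion at 0 h, with means of 2385 against 5831 and of 10.5 against 513.

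Of the 10 genes, 8 passed the filter on low values. L1CAM was the most abundant member in control cells at 0 h per exon length, with 451 ± 15.2 normalized reads per kb (mean ± SD, n = 2), followed by NCAM1 with 283, ICAM5 with 122, ICAM2 with 94.8, ICAM1 with 92.5, ICAM3 with 52.3, ALCAM with 4.10 and ICAM4 with 0.246. These means are all of 2 libraries, whose values are given gene by gene. The libraries of ICAM5, ICAM2 and ICAM1 lay close together, and ICAM2 overlapped both of the others. After 16 h of TNF-α the order in control cells was ICAM1 with 1206 normalized reads per kb, L1CAM with 709, ICAM2 with 264, ICAM5 with 99.6, NCAM1 with 77.4, ICAM3 with 55.9, ICAM4 with 21.0 and ALCAM with 3.04, with no overlap between neighbours. ICAM1 thus stood above 98.1% of all listed genes in the control cells at 16 h, against 74.1% at 0 h. NCAM1 moved the other way, from above 89.0% of listed genes in control cells at 0 h to above 52.6% in mutp53-depleted cells at 16 h.

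Without TNF-α, L1CAM remained first in the mutp53-depleted line too, with 247 normalized reads per kb, ahead of ICAM2 with 156, ICAM1 with 118, ICAM5 with 48.3, ICAM3 with 40.2, NCAM1 with 27.1, ALCAM with 1.04 and ICAM4 with 0.461. At 16 h ICAM1 led with 863, and the next, L1CAM with 296 and ICAM2 with 266, overlapped. ICAM3 with 44.5 and ICAM5 with 37.1 also overlapped there, and NCAM1 with 6.52, ICAM4 with 3.92 and ALCAM with 1.10 were the lowest.

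**Figure D1:**
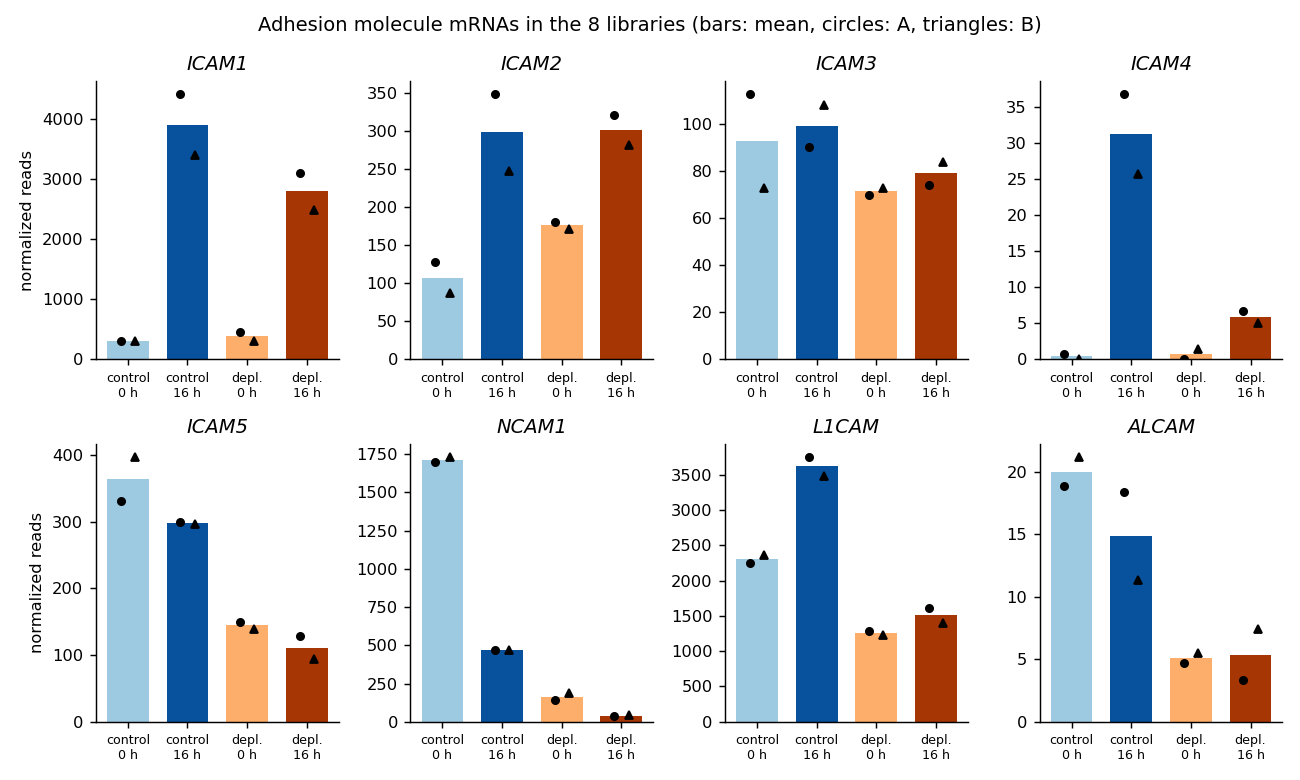
Normalized reads of 8 members in the 8 libraries, with a bar for the mean of each group, a circle for replicate A and a triangle for replicate B, each gene on its own axis from 0. ICAM1, ICAM2 and ICAM4 stand high at 16 h in both lines (ICAM1 from 2487 to 4410 against 292 to 455 at 0 h), whereas NCAM1 is highest in control cells at 0 h (1696 and 1732) and lowest in mutp53-depleted cells at 16 h (34.4 and 44.4).

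TNF-α was followed by higher mRNA of 3 ICAM genes in control cells, ICAM1 (13.0-fold), ICAM2 (2.78-fold) and ICAM4, and by lower NCAM1 (3.66-fold). Since the inducible genes and NCAM1 were selected on this response, the TNF-α values of all members are given as a description and without p-values. Of all 14800 genes tested, 2.97% were called higher and 4.27% lower after TNF-α in control cells, against 3 and 1 of the 8 members. In mutp53-depleted cells 1.86% were called higher and 4.50% lower, against 2 members (ICAM1 and ICAM4) and 1 member (NCAM1). The members' median log2 change was 0.39 in the controls and 0.20 after depletion, beside -0.05 and -0.06 over all genes.

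ICAM1 (CD54, NM_000201, chr19:10381517-10397291, plus strand, exon length 3237 bases) is the ligand of the leukocyte integrins LFA-1 and Mac-1. It was measured at 306 and 292 normalized reads in untreated and 4410 and 3400 in TNF-α-treated control cells, and 455 and 307 in untreated and 3101 and 2487 in treated mutp53-depleted cells. All 4 libraries at 16 h were thus above all 4 at 0 h, and at 16 h both control libraries were above both mutp53-depleted ones. The log2 change with TNF-α was 3.69 (SE 0.14) in control and 2.89 (SE 0.14) in mutp53-depleted cells, where the fold was 7.33. The interaction, which is the response of mutp53-depleted less that of control cells, was -0.80 (SE 0.20).

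Compared between the lines at one time, ICAM1 did not pass the test at 0 h, with a log2 difference of 0.32 (SE 0.14, limma adjusted p = 0.071). At 16 h it was 1.40-fold lower in mutp53-depleted cells, with a log2 difference of -0.48 (SE 0.14, limma adjusted p = 0.0095), which is short of the 2-fold limit. The contrasts at 0 h and 16 h share the control libraries of that time with the TNF-α response by which ICAM1 was chosen. Without replicate A of control cells at 16 h the difference was -0.29 (limma adjusted p = 0.19), and without replicate B of mutp53-depleted cells at 16 h it was -0.32 (limma adjusted p = 0.13).

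ICAM2 (CD102, NM_001099789, chr17:62079955-62097994, minus strand, exon length 1129 bases) is another LFA-1 ligand, found on endothelium and platelets. Its values were 128 and 86.3 normalized reads in untreated and 348 and 248 in TNF-α-treated control cells, and 180 and 171 in untreated and 320 and 281 in treated mutp53-depleted cells. The lines were apart at 0 h, where mutp53-depleted cells were higher, and overlapped at 16 h. TNF-α responses were 1.47 (SE 0.17) on the log2 scale in control cells and 0.77 (SE 0.17) in mutp53-depleted cells, with an interaction of -0.70 (SE 0.25).

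The depletion difference of ICAM2 was tested. At 0 h ICAM2 was 1.64-fold higher in mutp53-depleted cells (log2 difference 0.74, SE 0.17, limma adjusted p = 0.0016), under the 2-fold limit, and without replicate A of control cells at 0 h it passed that limit with 1.02. Over 18 alternatives it lay between 0.40 and 1.02, with an adjusted p under 0.05 in 15. At 16 h the log2 difference was 0.03 (SE 0.17, limma adjusted p = 0.89). Both contrasts reuse control libraries of the TNF-α response by which ICAM2 was chosen, so these p-values are not independent of that choice. The defining endothelial markers KDR and TEK were at 0, and VWF, the one endothelial marker of 6 that passed the filter, was higher in mutp53-depleted cells, with means of 25.4 against 6.30 normalized reads at 0 h. The summed level of the 6 endothelial markers was 5.69 to 7.26 in control and 17.6 to 29.5 in mutp53-depleted libraries, and its part in the ICAM2 values was not tested.

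ICAM4 (NM_022377, chr19:10397643-10399260, plus strand, exon length 1485 bases) is the Landsteiner-Wiener blood group antigen of red blood cells. It had 1 and 0 reads in untreated and 38 and 18 reads in TNF-α-treated control cells, and 0 and 1 in untreated and 8 and 4 in treated mutp53-depleted cells. In normalized reads its 16 h libraries stood at 36.7 and 25.6 in control and at 6.71 and 4.94 in mutp53-depleted cells, so the gene was all but unread before TNF-α and rare after it. The ratio of reads between 16 h and 0 h, scaled for library size, was 65.7 in control cells (95% exact counting interval 11.3 to 2640) and 13.3 in mutp53-depleted cells (1.97 to 569). ICAM4 passed the filter only through its 16 h libraries and was chosen by its TNF-α response, so its depletion values too are a description with no test.

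At 16 h mutp53-depleted cells had 0.186 times the ICAM4 reads of control cells (95% counting interval 0.0907 to 0.351), a log2 difference of -2.23 (SE 0.65). The value rested on few reads, and its call was lost without replicate A of control cells at 16 h (-1.98), without replicate B of mutp53-depleted cells at 16 h (-2.04), with a pseudocount of 0.1 (-2.39) and with no filter. At 0 h, with 1 read in each line, the log2 difference was 0.23 (SE 0.65), and the interaction was -2.45 (SE 0.92).

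ICAM1, ICAM4 and ICAM5 follow one another on the same strand of chromosome 19, with 351 bases between the annotated end of ICAM1 and the start of ICAM4 and 1394 bases between ICAM4 and ICAM5. ICAM4 had 8.33 reads per 1000 ICAM1 reads in replicate A of control cells at 16 h (95% exact interval 5.89 to 11.5) and 7.53 in replicate B (4.46 to 11.9). In mutp53-depleted cells at 16 h the same quantity was 2.16 (0.933 to 4.27) and 1.99 (0.540 to 5.09). Relative to ICAM1 the libraries of the lines did not overlap at 16 h, although the counting intervals of the control and mutp53-depleted B libraries overlap. At 0 h the intervals, which cover counting error only, were too wide to place the ratio. Whether any ICAM4 reads come from transcripts that run past the end of ICAM1 was not tested.

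**Figure D2:**
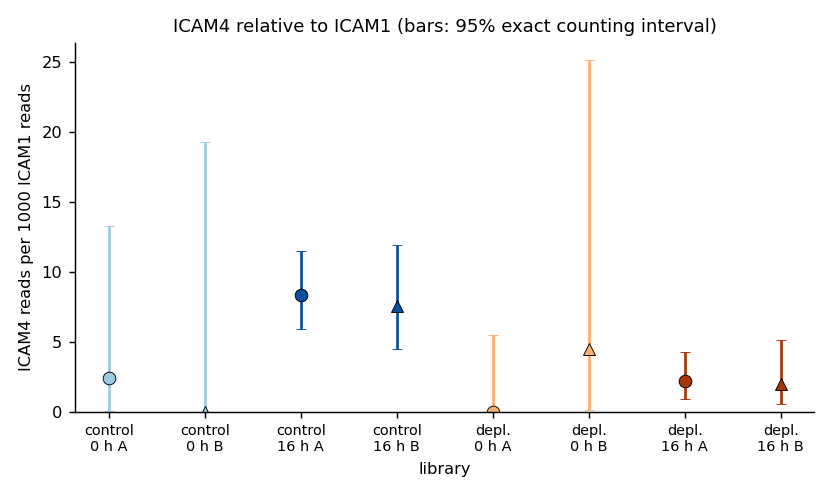
ICAM4 reads per 1000 ICAM1 reads in each of the 8 libraries, with 95% exact counting intervals as bars, circles for replicate A and triangles for replicate B. The control libraries at 16 h stand at 8.33 and 7.53 and the mutp53-depleted libraries at 16 h at 2.16 and 1.99, while the 0 h libraries rest on 0 or 1 ICAM4 read each.

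ICAM5 (telencephalin, NM_003259, chr19:10400655-10407454, plus strand, exon length 2989 bases) is known from neurons of the forebrain. Its values were 330 and 397 normalized reads in untreated and 299.7 and 296 in TNF-α-treated control cells, and 150 and 138 in untreated and 128 and 93.8 in treated mutp53-depleted cells. All 4 mutp53-depleted libraries were below all 4 control libraries. ICAM5 fell with depletion, 2.52-fold at 0 h (log2 difference -1.32, SE 0.15, limma adjusted p = 5.8e-07) and 2.68-fold at 16 h (log2 difference -1.43, SE 0.15, limma adjusted p = 2.1e-07). Both differences were called in all 18 alternative analyses. With TNF-α its log2 change was -0.28 (SE 0.15) in control and -0.39 (SE 0.15) in mutp53-depleted cells, so the gene downstream of ICAM1 and ICAM4 did not share their rise, and its interaction of -0.11 (SE 0.21, limma adjusted p = 0.88) did not pass the test.

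ICAM3 (CD50, NM_002162, chr19:10444452-10450345, minus strand, exon length 1771 bases), a ligand on resting leukocytes, lies 36997 bases past ICAM5 on the opposite strand. It stood at 112 and 72.7 normalized reads in untreated and 89.9 and 108 in TNF-α-treated control cells, and 69.7 and 72.7 in untreated and 73.8 and 83.9 in treated mutp53-depleted cells. Its log2 change with TNF-α was 0.12 (SE 0.21) in control and 0.14 (SE 0.21) in mutp53-depleted cells. Depletion differences of -0.34 at 0 h (SE 0.21, limma adjusted p = 0.18) and -0.32 at 16 h (SE 0.21, limma adjusted p = 0.22) did not pass the test. The leukocyte markers summed to between 14.2 and 44.3 normalized reads over 6 genes, with the defining marker PTPRC at 0. Of the 3 leukocyte markers tested, LYZ was higher with depletion at 0 h (log2 difference 1.63, limma adjusted p = 0.026) and CD14 was lower with TNF-α in control cells (-1.21, limma adjusted p = 0.037), neither of which DESeq2 called.

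Around the ICAM genes on chromosome 19, 9 other genes lay within 100 kb of ICAM1, ICAM4 or ICAM5, and 8 of them were tested. None of the 8 was called with limma in any of the 5 contrasts, nor with edgeR or DESeq2, and at an unadjusted p under 0.05 there were 3 higher and 1 lower with TNF-α in control cells, 2 higher in mutp53-depleted cells, and 2 in each direction with depletion at either time. Their log2 changes with TNF-α in control cells ranged from -0.60 for ZGLP1 to 0.51 for CDC37, with a median of 0.23, and in mutp53-depleted cells from -0.03 to 0.41. Although below the 2-fold limit, CDC37, a cochaperone of HSP90, had a limma adjusted p of 2.4e-05 for TNF-α in control cells, that of MRPL4 was 0.022 and that of TYK2, a kinase of cytokine receptors, 0.025. With depletion the range was -0.87 (ZGLP1) to 0.27 at 0 h and -0.85 (S1PR2) to 0.20 at 16 h. The rise of more than 2-fold after TNF-α was thus seen at ICAM1 and ICAM4 among the 12 tested genes of this stretch, and the depletion decrease of more than 2-fold at 0 h at ICAM5.

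**Figure D3:**
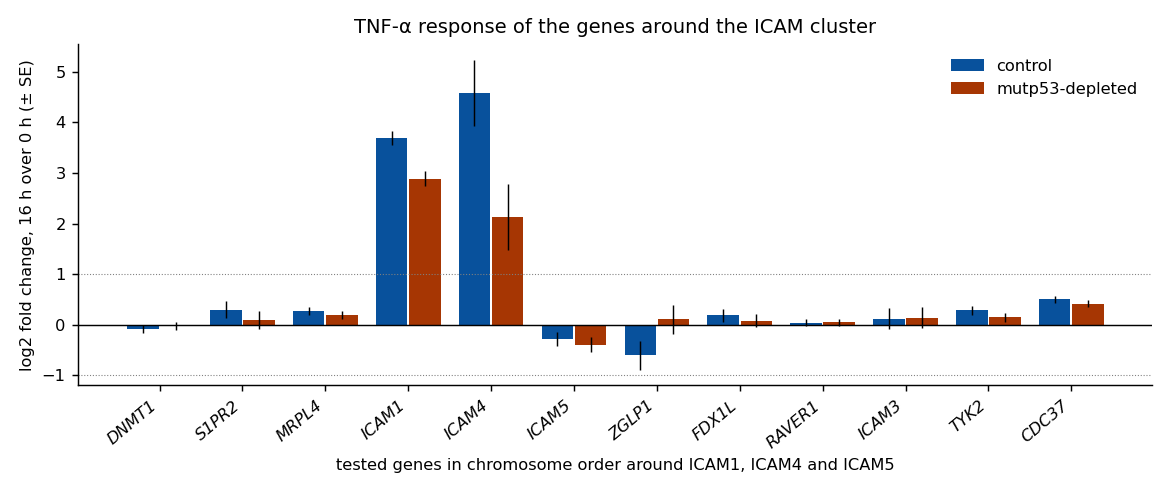
The log2 fold change after 16 h of TNF-α (± SE) for the 12 tested genes around the ICAM cluster, in chromosome order, with blue bars for control and brown bars for mutp53-depleted cells, and dotted lines at a 2-fold change. ICAM1 and ICAM4 rise above the dotted line in both lines (3.69 and 4.59 in control cells), and the neighbouring ICAM5 lies below 0.

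VCAM1 (chr1:101185196-101204601, plus strand), the ligand of the integrin VLA-4, had no read in any of the 8 libraries, including those at 16 h of TNF-α. A count of 0 allows up to 3 reads, which is between 2.01 and 4.54 normalized reads in a single library, and 74032587 reads on genes were counted over all libraries. VCAM1 and ICAM1 both have an NFκB motif and TATAAA letters in the promoter windows printed above, and the expression of VCAM1 was not detectable in these cells whereas ICAM1 was among the more abundant mRNAs. NCAM2 (chr21:22370633-22912517, plus strand), the paralog of NCAM1, also had no read in any library, with the same limits.

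NCAM1 (CD56, NM_001242607, chr11:112831969-113149158, plus strand, exon length 6046 bases) ran against the inducible ICAM genes. It was selected on all 8 libraries, so its values are a description with no test. Its normalized reads were 1696 and 1732 in untreated and 470 and 467 in TNF-α-treated control cells, and 141 and 186 in untreated and 34.4 and 44.4 in treated mutp53-depleted cells. The 4 groups did not overlap and formed 4 steps, from control at 0 h down to mutp53-depleted at 16 h.

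TNF-α was followed by 3.66-fold lower NCAM1 in control cells (log2 change -1.87, SE 0.14) and 4.15-fold lower NCAM1 in mutp53-depleted cells (-2.02, SE 0.14). Depletion was followed by a 10.5-fold lower level at 0 h (log2 difference -3.39, SE 0.14) and an 11.9-fold lower level at 16 h (-3.55, SE 0.14). The interaction was -0.15 (SE 0.20), so the fold changes with TNF-α in both lines lay within about 1 SE of each other. For ICAM1 the TNF-α response was opposite in direction and the depletion difference at 16 h was -0.48 against the -3.55 of NCAM1, both on the log2 scale.

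**Figure D4:**
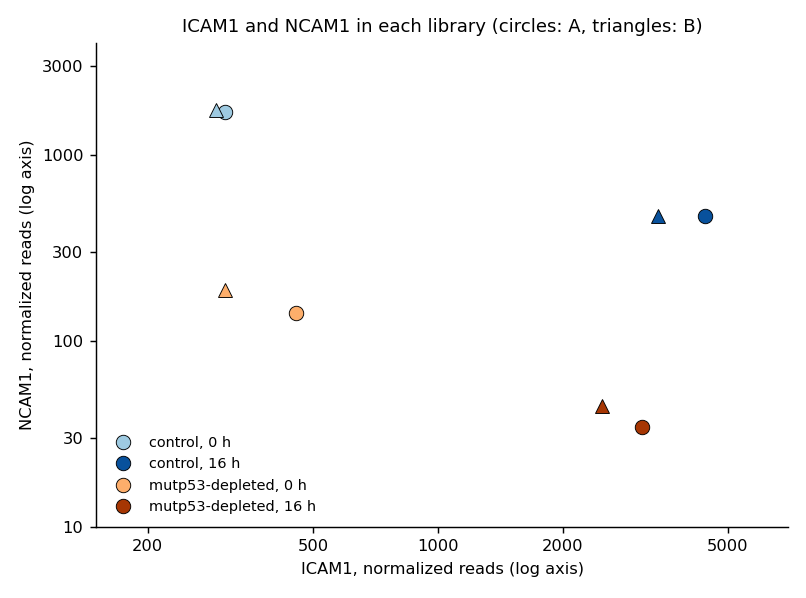
Normalized reads of ICAM1 (x axis) and NCAM1 (y axis) in each library, both on log axes, coloured by group, with circles for replicate A and triangles for replicate B. TNF-α moves the libraries of both lines to the right and down, and depletion moves them down, so that NCAM1 falls from about 1696 to 34.4 while ICAM1 separates the libraries by time.

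NCAM1 is also read as a neuroendocrine marker, and the 6 markers of neural and neuroendocrine cells summed to between 108 and 153 normalized reads in control libraries and between 28.4 and 39.4 in mutp53-depleted libraries. Of the 3 that passed the filter, CHGA, a protein of secretory granules, fell with depletion from a mean of 33.0 to 2.71 normalized reads at 0 h (log2 difference -3.19). At 16 h it fell from 22.1 to 1.46 (-3.15). CHGA passed the filter only through its control libraries, so its depletion values are a description with no test. The synaptic vesicle protein SYP fell at both times as well (-2.43 and -2.59, limma adjusted p = 5.8e-06 and 2.7e-06), and CHGB fell at 0 h (-1.02, limma adjusted p = 0.014), a call that DESeq2 did not make. INSM1, a defining transcription factor of neuroendocrine cells, was at 0 in all libraries. With TNF-α none of the 3 was called in either line with limma, edgeR or DESeq2, and 0 had an unadjusted p under 0.05. The part of such cells in the NCAM1 values was not tested.

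L1CAM (CD171, NM_000425, chrX:153126969-153141500, minus strand, exon length 5102 bases) binds itself and integrins and is shed by ADAM proteases. It was the most abundant member in 0 h cells, at 2246 and 2356 normalized reads in untreated and 3751 and 3484 in TNF-α-treated control cells, and 1290 and 1235 in untreated and 1616 and 1406 in treated mutp53-depleted cells. Every control library was above every mutp53-depleted library, and within each line the 16 h libraries were above those at 0 h. L1CAM fell with depletion, 1.82-fold at 0 h (log2 difference -0.87, SE 0.08, limma adjusted p = 3.3e-08), short of the 2-fold limit, and 2.39-fold at 16 h (-1.26, SE 0.08, limma adjusted p = 2.5e-10), where it was called.

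The change of L1CAM with TNF-α was 1.57-fold in control cells (log2 change 0.65, SE 0.08) and 1.20-fold in mutp53-depleted cells (0.26, SE 0.08). The interaction of -0.40 (SE 0.11, limma adjusted p = 0.059) missed the threshold, and its adjusted p ranged from 0.025 to 0.42 over 16 alternatives. Without replicate A of mutp53-depleted cells at 16 h it was -0.50 (limma adjusted p = 0.029). L1CAM thus went with the ICAM1 direction under TNF-α and with the NCAM1 direction under depletion.

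ALCAM (CD166, NM_001627, chr3:105085557-105295757, plus strand, exon length 4892 bases) binds CD6 on T cells and other ALCAM molecules. It was rare, at 18.9 and 21.2 normalized reads in untreated and 18.4 and 11.4 in TNF-α-treated control cells, and 4.69 and 5.48 in untreated and 3.35 and 7.40 in treated mutp53-depleted cells. All control libraries lay above all mutp53-depleted libraries, on 4 to 26 reads per library. ALCAM fell with depletion at 0 h (log2 difference -1.79, SE 0.47, limma adjusted p = 0.0037) and at 16 h (-1.36, SE 0.47, limma adjusted p = 0.022). The call at 16 h was lost without replicate A of control cells (-1.03, limma adjusted p = 0.16), without replicate A of mutp53-depleted cells (-0.88, limma adjusted p = 0.19), with no filter (limma adjusted p = 0.13), with DESeq2 (adjusted p = 0.10) and, by the 2-fold limit, with a pseudocount of 5 (-0.94). That at 0 h was lost with no filter (limma adjusted p = 0.062). With TNF-α its log2 change was -0.44 (SE 0.47) in control and -0.01 (SE 0.47) in mutp53-depleted cells.

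**Figure D5:**
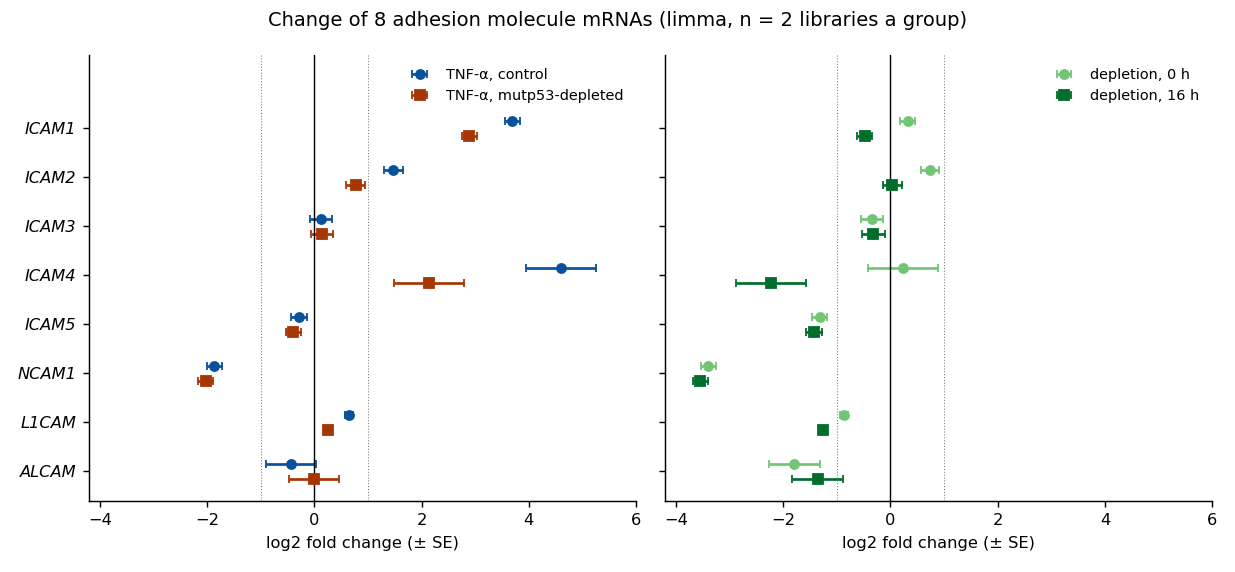
The log2 fold change (± SE, limma, 2 libraries a group) of 8 members with TNF-α in control (circles) and mutp53-depleted cells (squares) on the left, and with depletion at 0 h (circles) and 16 h (squares) on the right, with dotted lines at a 2-fold change. ICAM1, ICAM2 and ICAM4 lie to the right of 0 on the left side and NCAM1 to the left (-1.87 and -2.02), and on the right side NCAM1, ICAM5, L1CAM and ALCAM lie to the left of 0 at both times.

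Over the members as a set, depletion at 0 h called 3 of 8 lower (NCAM1, ALCAM and ICAM5) and 0 higher, beside 9.55% lower and 5.89% higher among all 14800 genes. No member was called higher at either time with limma, edgeR or DESeq2, and at an unadjusted p under 0.05 there were 2 higher at 0 h (ICAM1 and ICAM2) and 0 at 16 h. At 16 h 5 of 8 were called lower (NCAM1, ICAM4, ICAM5, ALCAM and L1CAM) and 0 higher, beside 10.2% and 5.03%. NCAM1 was selected on all 8 libraries, and ICAM4 passed the filter only through its 16 h libraries. The counts and medians of the members that include them are therefore a description and no test of the set. Without NCAM1 and the inducible ICAM1, ICAM2 and ICAM4, which were singled out for their levels, 2 of 4 were lower at 0 h (ALCAM and ICAM5) and 3 of 4 at 16 h (with L1CAM). These 4 were also chosen with earlier results of these data known, so their counts too are a description. Of 6 colon epithelial markers tested, 2 were called with depletion, both lower, with EPCAM lower by a log2 difference of -1.29 at 0 h and -1.06 at 16 h and VIL1 by -5.49 and -5.60 (limma adjusted p of at most 6.2e-08 for each). CDX2, a transcription factor of the intestine, lay the other way, with means of 1059.9 in mutp53-depleted against 973 in control cells at 0 h and 539 against 464 at 16 h, both under the 2-fold limit. The 8 epithelial markers summed to between 47855 and 63314 normalized reads in control and between 32772 and 43833 in mutp53-depleted libraries, and CDH1, VIL1 and CDX2 were lower with TNF-α in control cells (-2.51, -2.10 and -1.07). Their part in the members' differences was not tested. The members' median log2 difference was -0.60 at 0 h and -1.31 at 16 h, beside 0.03 and -0.01 over all genes. In the interaction 0.655% of all genes were higher and 2.21% lower at an adjusted p under 0.05, and ICAM1 was the 1 member of 8 past it, as a gene chosen by 1 of the responses it compares.

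The 51 nearest tested genes on each member's chromosome gave a median log2 difference with depletion of 0.11 at 0 h around NCAM1, 0.09 around ICAM5, -0.28 around L1CAM and 0.74 around ALCAM. At 16 h these medians were 0.10, 0.03, -0.23 and 0.75. Around NCAM1 and ICAM5 the medians were thus small, beside 0.03 and -0.01 over all genes at 0 h and 16 h. The median around ALCAM had the sign opposite to its decrease, and that around L1CAM the same sign as its decrease. The part of the chromosome region in these differences was not tested. Around ICAM2 the medians were 0.32 at 0 h and 0.35 at 16 h, in the direction of its higher level at 0 h. With the mean of the 0 h and 16 h neighbourhood medians removed from the mutp53-depleted libraries, the 0 h difference of ICAM2 was 0.40 (limma adjusted p = 0.079). Removing the neighbourhood medians in this way left 3 members called lower at 0 h and 5 at 16 h. NCAM1 at both times and ICAM4 at 16 h are in these counts as a description.

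Partners of these adhesion molecules were listed as 24 genes, of which 17 were tested. With TNF-α, ITGAM, the α subunit of the ICAM1-binding integrin Mac-1, rose from 0 and 0 normalized reads to 22.2 and 11.4 in control cells. In mutp53-depleted cells it rose from 2.01 and 0 to 27.7 and 25.9. ITGAM passed the filter only through its 16 h libraries, so these values are a description with no test. Mac-1 is a myeloid integrin, and ITGB2, the β subunit that ITGAM pairs with, was between 0 and 8.70 normalized reads in the 8 libraries, while the leukocyte marker PTPRC was at 0. NRP1, a coreceptor that L1CAM binds, rose in control cells from a mean of 871 to 2442 (log2 change 1.49, limma adjusted p = 1.3e-11).

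ANK3, an ankyrin that anchors L1CAM to the cytoskeleton, fell with depletion from 102 and 111 to 9.38 and 19.2 normalized reads at 0 h (log2 difference -2.89, limma adjusted p = 5.7e-08) and likewise at 16 h (log2 difference -2.56, limma adjusted p = 2.5e-07). It rose with TNF-α in both lines, by a log2 change of 1.64 in control and 1.96 in mutp53-depleted cells (limma adjusted p = 0.00013 and 2.1e-05). EZR, the linker between ICAM tails and actin, was higher in mutp53-depleted cells at 0 h (log2 difference 1.17, limma adjusted p = 3.3e-10). The integrin subunit ITGAV, which L1CAM can bind, had a smaller TNF-α response in mutp53-depleted cells (interaction -0.76, SE 0.13, limma adjusted p = 0.0029), and ITGB7 was lower after TNF-α in these cells, at 2.52 and 0 against 6.70 and 6.86 normalized reads (limma adjusted p = 0.037), a call that DESeq2 and edgeR quasi-likelihood did not make.

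Counted over the partner list, 1 of 17 was higher and 1 lower with depletion at 0 h, and 1 was lower at 16 h. Among all genes, 5.89% were called higher and 9.55% lower at 0 h, and 5.03% and 10.2% at 16 h. With TNF-α 3 partners were higher in control cells, and 3 higher and 1 lower in mutp53-depleted cells. ITGAM was among the higher ones in both lines. The shares of all genes were 2.97% higher and 4.27% lower in control cells, and 1.86% and 4.50% in mutp53-depleted cells. The medians of the list, 0.04, 0.03, -0.05 and -0.14 in these contrasts, were close to those of all genes.

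Among 30 other adhesion molecules of the superfamily, 17 were tested and none was called with TNF-α in either line with limma, beside 4 and 3 of the 8 members, which were chosen for it. At an unadjusted p under 0.05, 2 were higher and 6 lower in control cells and 3 and 3 in mutp53-depleted cells, and edgeR called 1 lower in control cells where DESeq2 called 0. With depletion, 1 was higher and 4 lower at 0 h, and 3 were higher and 4 lower at 16 h. DESeq2 called 1 higher at 16 h in place of 3, and edgeR and DESeq2 called 5 lower at 0 h in place of 4. The shares of all genes called higher and lower were 5.89% and 9.55% at 0 h, and 5.03% and 10.2% at 16 h. PVRL3 (nectin-3), an adherens junction protein, rose from 2.18 and 9.09 to 172 and 191 normalized reads at 0 h (log2 difference 5.004, limma adjusted p = 2.6e-07) and was likewise higher at 16 h (5.51, limma adjusted p = 7.5e-08). BCAM, a laminin receptor, fell (log2 difference -1.92 at 0 h and -2.36 at 16 h, limma adjusted p = 8.9e-11 and 6.8e-12), as did CEACAM1 (-2.34 and -1.79, limma adjusted p = 0.00064 and 0.0055). With depletion the list moved in both directions, with medians of -0.47 at 0 h and -0.54 at 16 h. In the interaction 2 were higher, PVRL1 (0.58, limma adjusted p = 0.012) and CADM1 (0.53, limma adjusted p = 0.013), beside 0.655% of all genes.

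The list of NFκB feedback genes holds inhibitors and subunits of the pathway that acts on ICAM1, and other genes such as TNFAIP2. After TNF-α 12 of 14 were higher in control and 9 of 14 in mutp53-depleted cells, with medians of 2.72 and 1.49 on the log2 scale. Over all genes 2.97% and 1.86% were called higher. In the interaction 11 of 14 were lower, with a median of -0.86, beside the -0.80 of ICAM1. The share of all genes lower in the interaction was 2.21%. The inhibitor of apoptosis BIRC3 had an interaction of -2.84 (SE 0.28, limma adjusted p = 1.5e-05), TNFAIP2 one of -2.66 (SE 0.12, limma adjusted p = 2.1e-10) and the NFκB inhibitor TNFAIP3 (A20) one of -1.95 (SE 0.41, limma adjusted p = 0.011).

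Some feedback genes also differed between the lines at one time. BIRC3 stood at 7.98 and 16.7 normalized reads without TNF-α in the control line, against 188 and 176 in the mutp53-depleted line (log2 difference 3.86, limma adjusted p = 2.9e-11), and at 16 h at 1371 and 1169 against 2591 and 2541 (1.02, limma adjusted p = 0.00027), so its level was higher in mutp53-depleted cells at both times, although at 16 h edgeR put it under the 2-fold limit. TNFAIP3 was higher in mutp53-depleted cells at 0 h (1.32, limma adjusted p = 0.00089). TNFAIP2 and RELB, a subunit of NFκB, fell with depletion at 16 h (-1.42 and -1.07, limma adjusted p = 1.6e-10 and 5.2e-07), and the inhibitor NFKBIB was higher at 0 h (1.40, limma adjusted p = 7.2e-10). With depletion, 4 of 14 feedback genes were higher at 0 h, and 1 was higher and 2 lower at 16 h. Over all genes the shares were 5.89% higher at 0 h, and 5.03% higher and 10.2% lower at 16 h. The largest TNF-α responses in the list were those of BIRC3 (6.65), TNFAIP3 (6.09) and TNFAIP2 (4.01) in control cells and of TRAF1 (4.37), TNFAIP3 (4.15) and BIRC3 (3.81) in mutp53-depleted cells.

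The genes whose pattern over the 8 libraries was most like that of ICAM1 were STAT5A, LIMD2 and IL32 (Pearson r 0.995 each), C3 (0.994) and NRP1 (0.994), on the log2(normalized reads + 1) scale. IL32, a cytokine, had means of 1.48 normalized reads in untreated and 895 in TNF-α-treated control cells, and 5.41 in untreated and 472 in treated mutp53-depleted cells, and the means of complement C3 went from 5.6 to 800.4 and from 11.1 to 401. Like ICAM1, these genes were high at 16 h and less so in mutp53-depleted cells. Within the members, ICAM4 (0.91) and ICAM2 (0.90) were nearest to ICAM1, and NCAM1 was at -0.46.

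For NCAM1 the nearest were C1orf116 (0.998), ETFB, HTRA1 (0.997 each), SYK and TRIOBP (0.996 each). HTRA1, a secreted protease, stepped down from a mean of 119.8 normalized reads to 41.2 after TNF-α in the control line, and from 11.5 to 2.495 in the mutp53-depleted line. The kinase SYK went from 6981 to 4475 and from 2646 to 1555. Within the members, ICAM5 (0.94) and ALCAM (0.88) were nearest to NCAM1, and L1CAM was at 0.59. These correlations describe 8 libraries that form 4 groups and share their scaling.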

How the data were processed

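Poly(A) RNA from 8 SW480 libraries (4 groups of 2) was sequenced as 50-base single-end stranded reads. Per the study's methods, the authors mapped reads with STAR and counted them per gene model. The commands in the table's header are those of HOMER, counting reads on RefSeq exons on the strand of the dUTP protocol and condensing transcripts to genes; versions are not given in the sources used here. The deposited signal values are these counts times 1 factor per library, and dividing by it gave whole reads (tolerance 0.02) for 100% of values in every library. Such reads from a gene and its near-identical copies cannot always be told apart. The table's header and coordinates name hg19, whereas the labels and methods name hg38; promoters are from RefSeq on GRCh38.p14 and no coordinates were converted. The authors also deposited log2 fold changes, p-values and adjusted p-values of 4 comparisons made with edgeR, which were not used. ChIP-seq and GRO-seq samples were not analysed here.

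limma 3.58.1 (R 4.3.3) was run on log2(value + 1) with group means and a trended spread. A replicate is known by the letter in the column name, and each group is 1 sample in the labels. Replicates differed by more than read sampling (chi-square per gene 2.07 to 3.93), and TMM factors lay between 0.97 and 1.03. Named genes are all members, their neighbours within 100 kb on chromosome 19, the 5 genes most like ICAM1 and NCAM1, and up to 3 called genes per list and contrast; the check of the targeted gene is not reported here. KRT8 and other marker genes come from the marker lists, and adjusted p-values of MRPL4, TYK2 and CDC37 were picked out after their values were seen. The members and lists were chosen with earlier results of these data known. Alternatives were pseudocounts of 0.1 and 5, no filter, a mean of at least 10, median-ratio scaling, a replicate block, edgeR 4.0.16 (quasi-likelihood and exact) and DESeq2 1.42.0 on the recovered reads, 8 fits that each left out 1 library and, chosen after seeing the data, removal of the median of the 51 neighbouring genes. For that removal, the mean of the 0 h and 16 h medians was taken from the mutp53-depleted libraries, and each gene was itself among its 51. On data simulated for depletion at 0 h with 200 of 14718 genes changed 4-fold, 196 were called, with 1 false call. The changed genes had a mean of at least 10 in control cells at 0 h, and the spread between simulated replicates was set beforehand. This recovery therefore does not describe changes near 2-fold or genes with few reads. Tables and plots used Python 3.11.15, pandas 2.3.3, numpy 2.4.6, scipy 1.17.1 and matplotlib 3.10.9. Intervals and floors cover counting error only.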

Additional observations from a re-analysis of the deposited data

Results flagged for a closer look

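The response of ICAM1 to TNF-α differed between the lines by the interaction contrast, with a log2 difference of -0.80 (SE 0.20) between mutp53-depleted and control cells, from 7.33-fold against 13.0-fold. Because ICAM1 was chosen by its TNF-α response, the value is a description. It kept its sign in all 16 alternatives, from -1.08 to -0.52, and stayed under the threshold in only 8 of them. These fits reuse the libraries by which ICAM1 was chosen, so they do not test the difference apart from that choice. The threshold was missed with DESeq2 (-0.82, adjusted p = 0.38), a pseudocount of 0.1 (-0.80, limma adjusted p = 0.093) and no filter (-0.80, limma adjusted p = 0.69). Without replicate A of mutp53-depleted cells at 0 h it was -0.52, without replicate A of control cells at 16 h -0.61, without replicate B of mutp53-depleted cells at 16 h -0.64, without replicate B of control cells at 0 h -0.77 and without replicate A of control cells at 0 h -0.83, and in each of these 5 fits it no longer passed the threshold.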

How the results depend on the processing

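The depletion differences of ICAM5 and L1CAM kept their direction and their side of the threshold in all 18 alternatives at both times, and so did the direction of NCAM1. Members called lower at 16 h of TNF-α were 3 with no filter and 3 to 5 with 1 library left out (3 without replicate A of control cells at 16 h). Members called higher at 0 h were 0 to 1 with 1 library left out. Members called higher with TNF-α in mutp53-depleted cells were 1 with pseudocounts of 0.1 and 5, no filter, a mean of at least 10 and DESeq2, and 1 to 2 with 1 library left out. Members called lower in the interaction were 0 with a pseudocount of 0.1, no filter and DESeq2, 3 with a pseudocount of 5, and 0 to 2 with 1 library left out. ICAM4 at a mean of at least 10 was not tested. The sign turned for ICAM4 at 0 h with edgeR quasi-likelihood (-0.11), edgeR exact (-0.12) and DESeq2 (-0.10), and ranged from -0.40 to 0.85 over fits without 1 library. It turned for ICAM2 at 16 h with edgeR quasi-likelihood (-0.012), edgeR exact (-0.0074) and neighbour medians removed (-0.30), and ranged from -0.21 to 0.28 without 1 library. With 1 library left out the interactions of ICAM3 (-0.29 to 0.33), ICAM5 (-0.33 to 0.11), NCAM1 (-0.36 to 0.048) and ALCAM (-0.041 to 0.91) also crossed 0. The cause of these changes was not tested. The replicate letters were not taken to pair the samples, since the A less B deviations of the groups correlated between -0.08 and 0.22 over 11023 genes, with 3 of 6 pairs of groups above 0.1. With the letter as a replicate block, 3 members (ICAM1, ICAM2 and L1CAM) were called lower in the interaction, ICAM1 at 0 h had a limma adjusted p of 0.0044 in place of 0.071 at the same 0.32, and 559 genes in all passed in the interaction, against 424, while the other contrasts moved by less than 1.5 times. ALCAM, ICAM4 and the genes at 0 reads are limited by depth.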
